A study of Mus musculus with 16 samples.

Results

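The genes described here are 10 mouse genes listed for the sorting and guidance of olfactory sensory axons. Several of them, but not all, are known to follow neuronal activity or its second messengers. They are the adhesion molecules Kirrel2, Kirrel3 and Pcdh10, the ligands Sema7a, Sema3a and Efna5, and the receptors Epha5, Nrp1, Plxna1 and Robo2. The array annotation used here paired 9 of the 10 with a probe set, 1 each, of 19505 genes in all; Nrp1 was not analysed here. None of the 9 had a group mean at or below the background level defined further down.

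The 16 Clariom S arrays came from S100a5-tauGFP mice, in which green fluorescent protein (GFP) marks the olfactory neurons that use the S100a5 gene, and S100a5 transcript follows recent odour activity. The 4 groups were GFP+ cells of mice given cigarette smoke odour, GFP- cells of the same smoke mice, GFP+ cells of mice given filtered air (vehicle), and GFP- cells of the same vehicle mice, with 4 arrays each. All 24 mice, of both sexes and 7 to 12 weeks old, carried the reporter, and each was kept alone in clean air flowing at 3.1 L per min for 40 h. From 26 h on, smoke odour or filtered air arrived in pulses of 10 s, once per 20 min. Mice were pooled in threes before the olfactory mucosa was dissociated and sorted, so 1 pool of 3 mice gave both a GFP+ and a GFP- array and the replicate is the pool. Cigarette smoke is the odour in all labels and in the title of the series; its design text instead mentions bourgeonal, another odorant, and the labels decided the naming.

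Each mature olfactory sensory neuron uses 1 odorant receptor gene, and axons of neurons with the same receptor gather in shared glomeruli of the olfactory bulb. In the mouse, odour-driven activity and receptor-driven cyclic AMP signals set how much of several surface molecules each neuron makes, and unequal amounts of these molecules separate neighbouring axons. Kirrel2 and the receptor EphA5 are known from mouse work for high levels in more active neurons, with Kirrel3 and its counterpart ephrin-A5 high in less active ones, while neuropilin-1, plexin-A1 and Sema3A act along the front-to-back axis of the bulb and Robo2 along its upper-to-lower axis. These statements are background and were not drawn from the present arrays.

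Promoters are shown for the 4 genes that were higher in the GFP+ fraction, so that the letters upstream of each gene can be read beside its values. The RefSeq windows (GRCm38.p6) run from 250 bases before to 50 after the annotated start, 5′ to 3′ on the strand of the gene. Capitals mark matches, on either strand, to the core of the cyclic AMP response element (TGACG) or to the EBF site of olfactory neuron genes (CCCNNGGG), which do not overlap in these windows.
Kirrel2, chr7:30457466-30457765, minus strand: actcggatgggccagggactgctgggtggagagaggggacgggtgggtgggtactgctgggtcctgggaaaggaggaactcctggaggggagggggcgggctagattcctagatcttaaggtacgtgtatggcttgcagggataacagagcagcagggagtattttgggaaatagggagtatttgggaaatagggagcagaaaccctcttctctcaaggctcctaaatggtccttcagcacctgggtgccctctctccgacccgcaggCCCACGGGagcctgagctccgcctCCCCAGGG
Pcdh10, chr3:45378148-45378447, plus strand: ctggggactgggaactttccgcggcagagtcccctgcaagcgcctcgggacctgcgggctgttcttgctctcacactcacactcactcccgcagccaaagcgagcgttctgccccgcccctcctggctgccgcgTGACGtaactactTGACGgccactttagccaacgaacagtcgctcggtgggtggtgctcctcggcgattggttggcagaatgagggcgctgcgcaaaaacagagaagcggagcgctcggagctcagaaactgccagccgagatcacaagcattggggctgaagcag
Sema7a, chr9:57939862-57940161, plus strand: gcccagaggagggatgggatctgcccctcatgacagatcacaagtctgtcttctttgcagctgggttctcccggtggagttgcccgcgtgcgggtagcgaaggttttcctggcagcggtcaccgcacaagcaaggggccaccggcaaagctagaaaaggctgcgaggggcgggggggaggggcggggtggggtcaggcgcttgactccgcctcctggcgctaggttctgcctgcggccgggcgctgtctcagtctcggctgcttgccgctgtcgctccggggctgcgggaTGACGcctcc
Epha5, chr5:84417333-84417632, minus strand: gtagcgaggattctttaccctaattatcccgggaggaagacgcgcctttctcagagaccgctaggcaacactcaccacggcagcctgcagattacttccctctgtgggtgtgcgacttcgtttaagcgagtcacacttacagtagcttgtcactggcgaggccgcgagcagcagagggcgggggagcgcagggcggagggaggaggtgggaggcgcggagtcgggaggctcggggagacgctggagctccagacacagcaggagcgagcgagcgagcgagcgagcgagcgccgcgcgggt
Pcdh10 holds the core site at positions -116 and -103 from its start, and Sema7a holds it once, at position 40. Kirrel2 holds the EBF site at positions 18 and 42, and the Epha5 window holds neither motif. The core site is found in 20.8% of the 32851 promoters of the table and the EBF site in 13.7%. The full cyclic AMP response element (TGACGTCA), present in 1.79% of promoters, is in none of these 4 windows. Of the 10 genes, 8 had a promoter in the table, and those of Sema3a, Efna5 and Nrp1 hold none of the 3 motifs, while 1 of 3 annotated Robo2 starts holds the EBF site. Kirrel3 and Plxna1 are named only.

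The gene that drives the reporter, S100a5, was higher in GFP+ cells of both exposures (adjusted p = 6.45e-06 in smoke and 2.88e-06 in vehicle mice by limma). It averaged 17.02 ± 0.15 in smoke GFP+ cells, 15.87 ± 0.25 in smoke GFP- cells, 16.46 ± 0.06 in vehicle GFP+ cells and 15.25 ± 0.24 in vehicle GFP- cells on the log2 scale of the deposited values (SD, n = 4 each). Omp, the marker of mature olfactory neurons, averaged 18.27, 18.16, 18.23 and 18.14 in the same order of groups, and its GFP+ minus GFP- difference did not pass the test in either exposure. Group means of these genes reach past the 16 log2 units that a 16-bit scanner can record, whereas no array had any of the 9 genes above 14.97. The smoke GFP+ arrays 2 and 4 stood apart in sustentacular (supporting cell) markers, with a list mean of 12.45 and 12.83, against 11.77 and 11.85 on the other smoke GFP+ arrays and 11.57 to 12.00 in vehicle GFP+ cells. Both pools numbered 1 were low in Y-linked transcripts, with Uty at 10.63 to 12.14 in all other pools. Uty was 3.52 in GFP+ and 6.57 in GFP- cells of smoke pool 1, and 3.635 and 4.07 in those of vehicle pool 1. Why the fractions of smoke pool 1 differed was not tested.

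**Figure D1:**
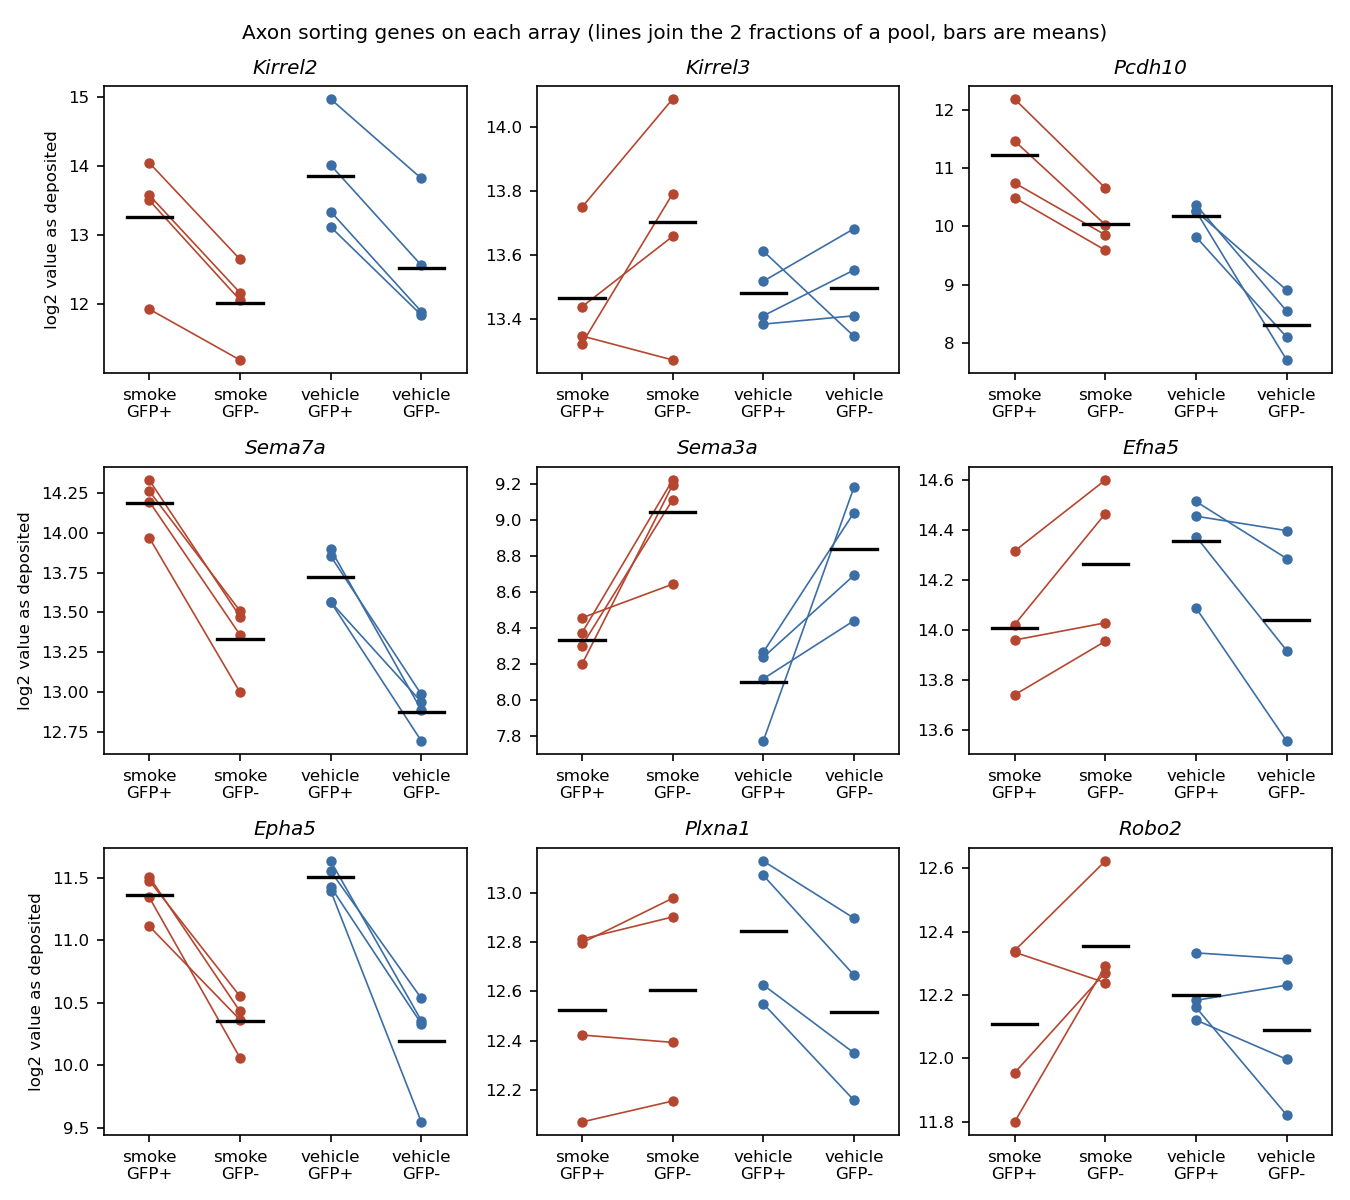
Deposited log2 value of each gene on each array, by group on the x axis, with lines joining the 2 fractions of a pool and bars at the group means (n = 4 arrays). Kirrel2, Pcdh10, Sema7a and Epha5 lie higher in GFP+ than in GFP- cells in all 8 pools, Sema3a lies lower, and Pcdh10 and Sema7a lie higher in smoke than in vehicle mice within each fraction.

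The GFP+ fraction held more Kirrel2, Pcdh10, Sema7a and Epha5 transcript and less Sema3a transcript than the GFP- fraction of the same mice. A call is an adjusted p of at most 0.05, from limma on all 16 arrays with Benjamini-Hochberg adjustment over 19505 genes. In smoke mice 3 of the 9 genes were called higher and 1 lower in GFP+ cells, where 18.3% of all genes were called higher and 14.4% lower. In vehicle mice 4 were called higher and 1 lower, where 24.2% of all genes were called higher and 15.4% lower. With 9 genes and so many genes called in all, these counts say little about the list, and the values of each gene follow. Where groups of 4 arrays are said not to overlap, the background is wide as well: in smoke mice 16.3% of all genes lay wholly higher and 13.5% wholly lower in GFP+ cells, and in vehicle mice 23.8% and 15.1%.

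Among the adhesion molecules, Pcdh10, a delta protocadherin that joins like cells, had the largest difference of the 9 genes between the fractions of vehicle mice. Its values were 12.18, 10.74, 11.46 and 10.49 in smoke GFP+ cells and 10.66, 9.85, 10.03 and 9.59 in smoke GFP- cells. They were 10.37, 10.26, 9.82 and 10.26 in vehicle GFP+ cells and 8.55, 8.91, 8.10 and 7.71 in vehicle GFP- cells. The fractions did not overlap in vehicle mice, and in smoke mice 1 GFP- array, that of pool 1, reached above the lowest GFP+ array. GFP+ cells exceeded GFP- cells by 1.19 in smoke mice (SE 0.33, adjusted p = 0.0116 by limma) and by 1.86 in vehicle mice (SE 0.33, adjusted p = 0.000291). In order of level, smoke GFP+ cells came first and vehicle GFP- cells last, and the 2 groups between them, vehicle GFP+ (10.18 ± 0.24) and smoke GFP- cells (10.03 ± 0.45), overlapped.

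Kirrel2, an immunoglobulin-family molecule that binds itself on neighbouring axons, was the most variable of the 9 genes between pools. Its values were 13.58, 14.05, 13.51 and 11.93 in smoke GFP+ cells and 12.17, 12.65, 12.06 and 11.20 in smoke GFP- cells. They were 14.02, 14.97, 13.34 and 13.12 in vehicle GFP+ cells and 12.57, 13.82, 11.90 and 11.85 in vehicle GFP- cells. Smoke pool 4 was the lowest pool in both fractions and vehicle pool 2 the highest in both, and in each exposure the ranges of the fractions overlapped. The SD within groups was 0.83, larger than that of 99.77% of the 19505 genes (rank 45). The difference between the fractions of 1 pool varied less. In smoke pools it was 1.41, 1.40, 1.44 and 0.73, and for the vehicle pools 1.45, 1.15, 1.45 and 1.27, above 0 in all 8, with a pooled SD of 0.26.

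Because of that spread between pools, the fit without pairing gave Kirrel2 a difference of 1.25 in smoke mice (SE 0.51, 95% interval 0.16 to 2.33, adjusted p = 0.0722), which was not called, and of 1.33 in vehicle mice (SE 0.51, adjusted p = 0.0485), which was. With the pool as a block, which compares the fractions of the same mice, the adjusted p was 5.73e-05 in smoke mice and 3.04e-05 in vehicle mice. The unpaired call in vehicle mice was lost on leaving out vehicle GFP+ array 1 or 2 or vehicle GFP- array 1, 3 or 4 (adjusted p 0.0781 to 0.159). In smoke mice it was gained without smoke GFP+ array 4 (difference 1.69, adjusted p = 0.0162).

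Kirrel3, the relative of Kirrel2 and likewise a self-binding adhesion molecule, did not separate the fractions. It averaged 13.47 ± 0.20 in smoke GFP+ cells and 13.70 ± 0.34 in smoke GFP- cells, and 13.48 ± 0.11 in vehicle GFP+ cells and 13.50 ± 0.15 in vehicle GFP- cells (SD, n = 4). The ranges overlapped in both exposures. GFP+ minus GFP- was -0.24 in smoke mice (95% interval -0.56 to 0.08) and -0.02 in vehicle mice (95% interval -0.34 to 0.31), neither of which was called, and 1 of 4 pools of each exposure had GFP+ above GFP-.

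Of the ligands, Sema7a had the clearest order of groups. This membrane-anchored semaphorin, known in the mouse for activity-dependent synapse formation with mitral cells, had values of 14.33, 13.97, 14.20 and 14.26 in smoke GFP+ cells and 13.47, 13.00, 13.36 and 13.51 in smoke GFP- cells. They were 13.57, 13.85, 13.57 and 13.90 in vehicle GFP+ cells and 12.94, 12.99, 12.69 and 12.89 in vehicle GFP- cells. The order was smoke GFP+, vehicle GFP+, smoke GFP- and vehicle GFP-, and no 2 groups overlapped. GFP+ cells exceeded GFP- cells by 0.85 in smoke mice (SE 0.13, adjusted p = 9.60e-05 by limma) and by 0.84 in vehicle mice (SE 0.13, adjusted p = 9.05e-05), differences of 1.81-fold and 1.80-fold if the scale is log2 throughout.

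Sema3a, a secreted repellent read by neuropilin-1 with plexin-A1, went the other way. It had 8.20, 8.46, 8.37 and 8.30 in smoke GFP+ cells, against 9.20, 8.64, 9.22 and 9.11 in smoke GFP- cells, and 7.77, 8.12, 8.27 and 8.24 in vehicle GFP+ cells, against 9.18, 8.44, 9.04 and 8.69 in vehicle GFP- cells. Every GFP+ array lay below every GFP- array of the same exposure. The difference was -0.71 in smoke mice (SE 0.17, adjusted p = 0.00425 by limma) and -0.74 in vehicle mice (SE 0.17, adjusted p = 0.00250). Pool 2 had the smallest gap in both exposures, -0.19 in smoke and -0.32 in vehicle mice.

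Efna5, the gene of ephrin-A5, a membrane-anchored ligand of EphA receptors, was not called in either exposure without pairing. Its values were 14.32, 14.02, 13.96 and 13.74 in smoke GFP+ cells and 14.60, 14.47, 14.03 and 13.95 in smoke GFP- cells, with 14.52, 14.46, 14.37 and 14.09 in vehicle GFP+ cells and 14.29, 14.40, 13.92 and 13.55 in vehicle GFP- cells. The fractions overlapped in both exposures, but within pools GFP+ lay below GFP- in 4 of 4 smoke pools and above it in 4 of 4 vehicle pools. The difference was -0.25 in smoke mice (95% interval -0.66 to 0.16) and 0.32 in vehicle mice (95% interval -0.09 to 0.73). With the pool as a block the vehicle difference was called (adjusted p = 0.0475) and the smoke difference was not (adjusted p = 0.113).

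Among the receptors, Epha5, which binds ephrin-A ligands, was higher in the GFP+ cells of all 8 pools. It had 11.48, 11.51, 11.34 and 11.11 in smoke GFP+ cells, against 10.55, 10.43, 10.06 and 10.37 in smoke GFP- cells, and 11.43, 11.63, 11.55 and 11.40 in vehicle GFP+ cells, against 10.33, 10.36, 10.54 and 9.55 in vehicle GFP- cells. No GFP+ array overlapped a GFP- array of the same exposure. The difference was 1.01 in smoke mice (SE 0.18, adjusted p = 0.000346 by limma) and 1.31 in vehicle mice (SE 0.18, adjusted p = 1.95e-05). The 2 GFP+ groups overlapped each other, as did the 2 GFP- groups.

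Plxna1, the signalling partner of neuropilin-1, and Robo2, a receptor for Slit proteins, were not called in either exposure without pairing. Plxna1 averaged 12.53 ± 0.35 in smoke GFP+ cells, 12.61 ± 0.40 in smoke GFP- cells, 12.84 ± 0.30 in vehicle GFP+ cells and 12.52 ± 0.33 in vehicle GFP- cells (SD, n = 4 each). Its values varied more within a group than its fraction difference varied between pools: the SD within groups was 0.35 and the SD of the difference within a pool 0.09. The smoke pools had differences of -0.18, -0.09, 0.03 and -0.09 and the vehicle pools 0.41, 0.23, 0.28 and 0.39, so the pools of the exposures did not overlap. With the pool as a block the vehicle difference of 0.33 was called (adjusted p = 0.0192) and the smoke difference of -0.08 was not (adjusted p = 0.523). Robo2 averaged 12.11 ± 0.27 in smoke GFP+ cells, 12.36 ± 0.18 in smoke GFP- cells, 12.20 ± 0.09 in vehicle GFP+ cells and 12.09 ± 0.22 in vehicle GFP- cells, with overlapping ranges, and its GFP+ minus GFP- difference was -0.25 in smoke mice (95% interval -0.56 to 0.06) and 0.11 in vehicle mice (95% interval -0.20 to 0.42).

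**Figure D2:**
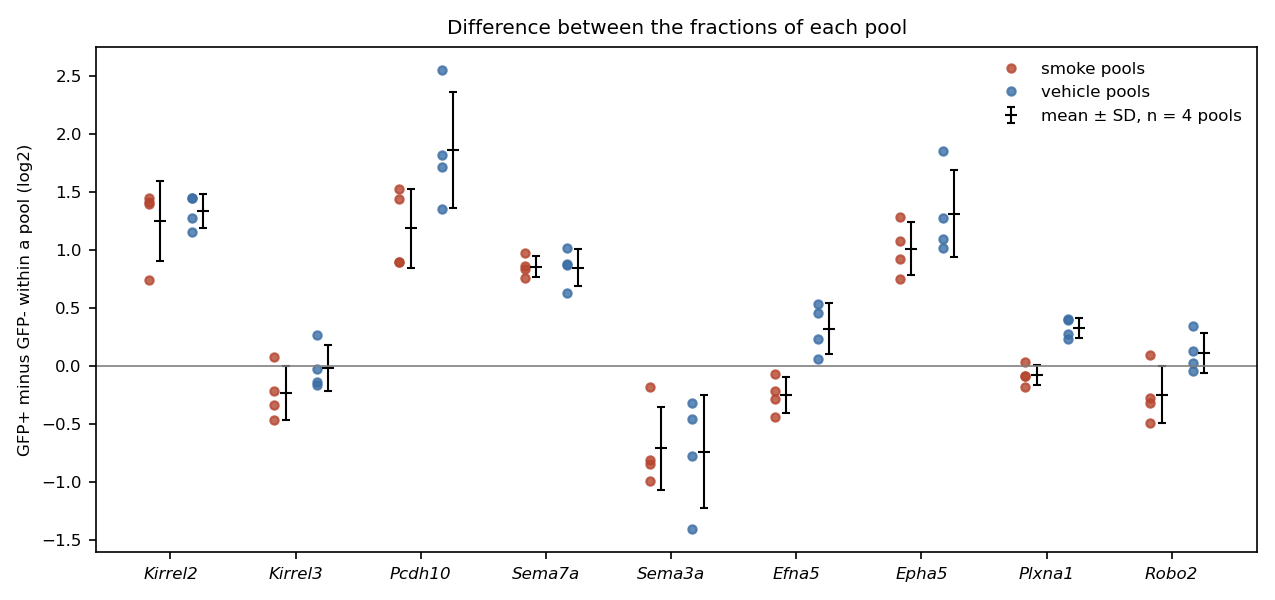
GFP+ minus GFP- log2 value within each pool, by gene on the x axis, with smoke pools (red, left) beside vehicle pools (blue, right) and the mean ± SD over 4 pools. All 8 pools lie above 0 for Kirrel2, Pcdh10, Sema7a and Epha5 and below 0 for Sema3a, and for Efna5 the smoke pools lie below 0 and the vehicle pools above it.

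Marker lists of several cell types were lower in the GFP+ fraction as well. Markers of immune cells averaged 8.09 in smoke GFP+ cells, against 12.60 in smoke GFP- cells, and 8.18 in vehicle GFP+ cells, against 12.94 in vehicle GFP- cells, and 12 of 14 were called lower in smoke and 14 of 14 in vehicle mice. Markers of microvillar cells and ionocytes averaged 7.55 in smoke GFP+ cells, against 10.18 in smoke GFP- cells, and 7.37 in vehicle GFP+ cells, against 10.27 in vehicle GFP- cells, and 8 of 8 were called lower in both exposures. Immature neuron markers averaged 11.68 in smoke GFP+ cells, against 13.18 in smoke GFP- cells, and 11.61 in vehicle GFP+ cells, against 13.16 in vehicle GFP- cells, with 4 of 7 called lower in each and 1 called higher in vehicle mice. Mature neuron markers averaged 16.30 in smoke GFP+ cells, against 16.06 in smoke GFP- cells, and 16.31 in vehicle GFP+ cells, against 15.99 in vehicle GFP- cells. Of the mature markers 2 of 11 were called higher in smoke and 5 of 11 in vehicle mice, with 0 lower. The background for each marker list here was 18.3% of all genes called higher and 14.4% lower in smoke mice. In vehicle mice it was 24.2% and 15.4%. The 2 of 11 in smoke mice lies near that share, so no enrichment of mature neurons is read from it. Markers of globose basal and dividing cells averaged 5.99 in smoke GFP+ cells, against 8.37 in smoke GFP- cells, and 6.02 in vehicle GFP+ cells, against 8.51 in vehicle GFP- cells, and 3 of 4 were called lower in each exposure. Sustentacular markers averaged 12.23 in smoke GFP+ cells, against 12.27 in smoke GFP- cells, and 11.76 in vehicle GFP+ cells, against 12.40 in vehicle GFP- cells. Of these 8 markers, 1 was called higher in smoke mice and 5 were called lower in vehicle mice, with a median GFP+ minus GFP- difference of -0.13 in smoke and -0.75 in vehicle mice. The part of these cell types in the differences of the 9 genes was not tested, and in bulk fractions fewer cells of a type and less RNA per cell cannot be told apart. All 4 horizontal basal cell markers were at background in all 4 groups, and 6 to 9 of 12 endothelial and stromal markers were. Background here is the 95th percentile of the vomeronasal receptor genes, 6.18 to 6.57 by group.

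The size of these differences, and the direction of small ones, also depend on where 0 is set. Kirrel2, Pcdh10, Sema7a, Epha5 and Sema3a kept their direction after centring in both exposures. Over all genes the median GFP+ minus GFP- difference was 0.15 in smoke mice and 0.17 in vehicle mice as deposited, and 0.47 and 0.51 after each array was centred on its gene median. Centring raised the genes called to 14268 in smoke mice, 85.3% of them higher against 56.1% before, and to 15086 in vehicle mice, 85.0% of them higher against 61.2% before. Relative to the all-gene median, which centring does not move, GFP+ minus GFP- was 1.04 in smoke and 1.69 in vehicle mice for Pcdh10, 1.10 and 1.16 for Kirrel2, 0.70 and 0.68 for Sema7a, 0.86 and 1.14 for Epha5, and -0.86 and -0.91 for Sema3a. Centring added Kirrel2 to the calls in smoke mice (adjusted p = 0.0121) and Efna5, Plxna1 and Robo2 to those in vehicle mice, where 8 of the 9 genes were then called.

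Between smoke odour and filtered air, Pcdh10 and Sema7a had values that did not overlap in either fraction, and neither passed the test over all genes. Of all genes, 1.66% lay wholly higher and 1.34% wholly lower in smoke than in vehicle GFP+ cells, and 1.43% and 1.30% in GFP- cells. Of the 9 genes, 0 were called in GFP+ cells, where 0.103% of all genes were called higher and 0.00513% lower, and 0 in GFP- cells, where 0.0154% were called higher and 0.113% lower. At an unadjusted p under 0.05, limma left the same 2 genes, Pcdh10 and Sema7a, in each fraction, beside 936 genes in GFP+ cells and 1115 in GFP- cells. The fractions of a pool come from the same mice, so these are not independent repeats.

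Pcdh10 had the largest difference of the 9. The values given above did not overlap between exposures in either fraction: in GFP+ cells the smoke arrays ran from 10.49 to 12.18 and the vehicle arrays from 9.82 to 10.37, and in GFP- cells the smoke arrays ran from 9.59 to 10.66 and the vehicle arrays from 7.71 to 8.91. Smoke minus vehicle was 1.04 in GFP+ cells (SE 0.33, 95% interval 0.34 to 1.74, adjusted p = 0.693 by limma) and 1.71 in GFP- cells (SE 0.33, 95% interval 1.01 to 2.41, adjusted p = 0.0620). The GFP- difference was called with the pool as a random block (adjusted p = 0.0457) and after quantile normalization (difference 1.83, adjusted p = 0.0478). Smoke pools 2 and 4 were those whose GFP+ arrays were high in sustentacular markers. Without them the difference was 1.64 in GFP+ cells and 2.02 in GFP- cells (adjusted p = 0.237 and 0.0866 by limma).

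Sema7a averaged 14.19 ± 0.16 in smoke GFP+ cells, against 13.72 ± 0.18 in vehicle GFP+ cells, and 13.34 ± 0.23 in smoke GFP- cells, against 12.88 ± 0.13 in vehicle GFP- cells (SD, n = 4 each). Smoke minus vehicle was 0.47 in GFP+ cells (SE 0.13, 95% interval 0.19 to 0.75, adjusted p = 0.537 by limma) and 0.46 in GFP- cells (SE 0.13, 95% interval 0.18 to 0.74, adjusted p = 0.495). Over the alternatives that left out 1 array it ran from 0.42 to 0.54 in GFP+ cells and from 0.40 to 0.57 in GFP- cells. For comparison, smoke minus vehicle of S100a5 itself was 0.56 in GFP+ cells (adjusted p = 0.364) and 0.62 in GFP- cells (adjusted p = 0.179), and was not called either.

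The other genes had intervals that include 0 in both fractions. Kirrel2 was -0.60 in GFP+ cells (95% interval -1.68 to 0.49) and -0.51 in GFP- cells (95% interval -1.59 to 0.57), wide intervals that reach past 1 log2 unit downward. Leaving out 1 array at a time moved it between -0.856 and -0.151 in GFP+ cells and between -0.741 and -0.0821 in GFP- cells. Kirrel3 was -0.02 in GFP+ cells (95% interval -0.34 to 0.31) and 0.20 in GFP- cells (95% interval -0.12 to 0.53). Sema3a was 0.23 and 0.20, Epha5 was -0.14 and 0.16, Efna5 was -0.35 and 0.22, Plxna1 was -0.32 and 0.09, and Robo2 was -0.09 and 0.27, each with GFP+ cells first, and their adjusted p by limma lay between 0.885 and 0.999. A p that misses the threshold does not show that the exposures left these genes alike.

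**Figure D3:**
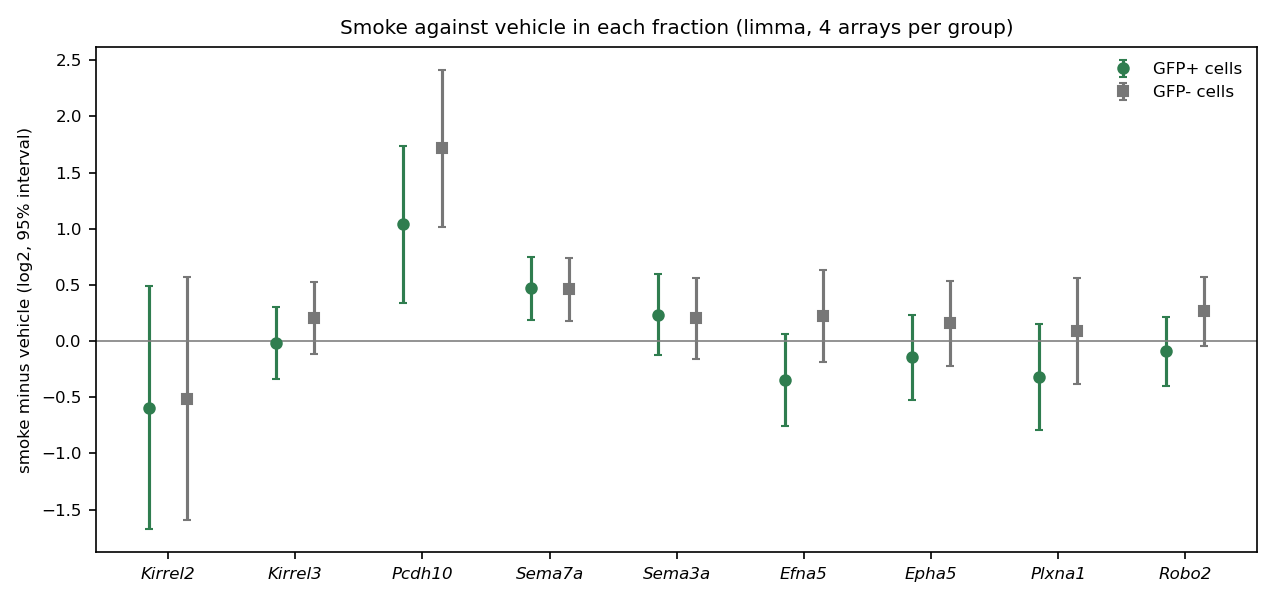
Smoke minus vehicle log2 difference of each gene in GFP+ cells (green circles) and GFP- cells (grey squares) with 95% intervals from limma, 4 arrays per group. The intervals of Pcdh10 and Sema7a lie above 0 in both fractions, and those of the other 7 genes include 0.

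With the pool as the unit, the mean of both fractions was compared over 8 pools. Pcdh10 had pool means of 11.42, 10.30, 10.75 and 10.04 in smoke mice, against 9.46, 9.59, 8.96 and 8.99 in vehicle mice, a difference of 1.38 (SE 0.27, adjusted p = 0.251 by limma). Sema7a had 13.90, 13.48, 13.78 and 13.89 in smoke mice, against 13.25, 13.42, 13.13 and 13.39 in vehicle mice, a difference of 0.46 (SE 0.12, adjusted p = 0.623). Neither gene's pools overlapped between exposures, as was so for 1.32% of all genes in the higher and 0.948% in the lower direction. Of the 9 genes 0 were called, with 0.0103% of all genes called higher and 0% lower, and Pcdh10 and Sema7a were again the 2 genes at an unadjusted p under 0.05, beside 802 genes in all.

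Whether smoke changed the step between the fractions was asked with the ratio of GFP+ over GFP- cells in smoke mice against that in vehicle mice. Of the 9 genes 0 were called by limma, where 0.169% of all 19505 genes were called higher and 0.00513% lower. At an unadjusted p under 0.05 there were 0 of the 9, against 1114 of all genes. The step of Sema7a differed by 0.01 between exposures (95% interval -0.39 to 0.41). Kirrel2 differed by -0.08 (95% interval -1.61 to 1.45) and Pcdh10 by -0.67 (95% interval -1.66 to 0.32). Efna5 differed by -0.57 (95% interval -1.15 to 0.01, adjusted p = 0.860) and Plxna1 by -0.41 (95% interval -1.08 to 0.26, adjusted p = 0.919), the 2 genes whose pool differences did not overlap between exposures, as was so for 2.75% of all genes in the same, lower direction and for 2.00% in the higher one. The fit with the pool as a block compares these within-pool differences directly. It left 0 of the 9 genes called, and 3 of the 9 had an unadjusted p under 0.05, Efna5, Plxna1 and Pcdh10, beside 1516 of all genes. With the block, Efna5 had an SE of 0.16 (95% interval -0.93 to -0.21, adjusted p = 0.418), Plxna1 an SE of 0.13 (95% interval -0.70 to -0.11, adjusted p = 0.485) and Pcdh10 an SE of 0.27 (95% interval -1.27 to -0.08, adjusted p = 0.580).

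Each gene called in at least 1 comparison was matched with the genes whose 16 values, centred on their own mean, lay closest by root mean square difference, among 12738 genes above background. The closest to Pcdh10 were Galnt15 (0.62), S100a5 (0.64) and the odorant receptor gene Olfr273 (0.66). Those closest to Kirrel2 were Dio2 (0.41), which encodes a thyroid hormone deiodinase, Kcng1 (0.57) and Lrrc3b (0.57). Like Kirrel2, Dio2 was lowest in pool 4 in smoke GFP+ cells and highest in pool 2 in vehicle GFP+ cells. Sema7a lay closest to Oxnad1, Golga7b and Rnf183 (each 0.21), Sema3a to Ano10 (0.20), Nlrx1 (0.20) and the transcription factor gene Pax6 (0.21), and Epha5 to Ptchd1 (0.17), the delta protocadherin gene Pcdh8 (0.18) and the synaptotagmin gene Syt4 (0.19). These are likenesses over 16 arrays that share mice and processing, and a gene with larger swings, such as Pcdh10, has no very close match.

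**Figure D4:**
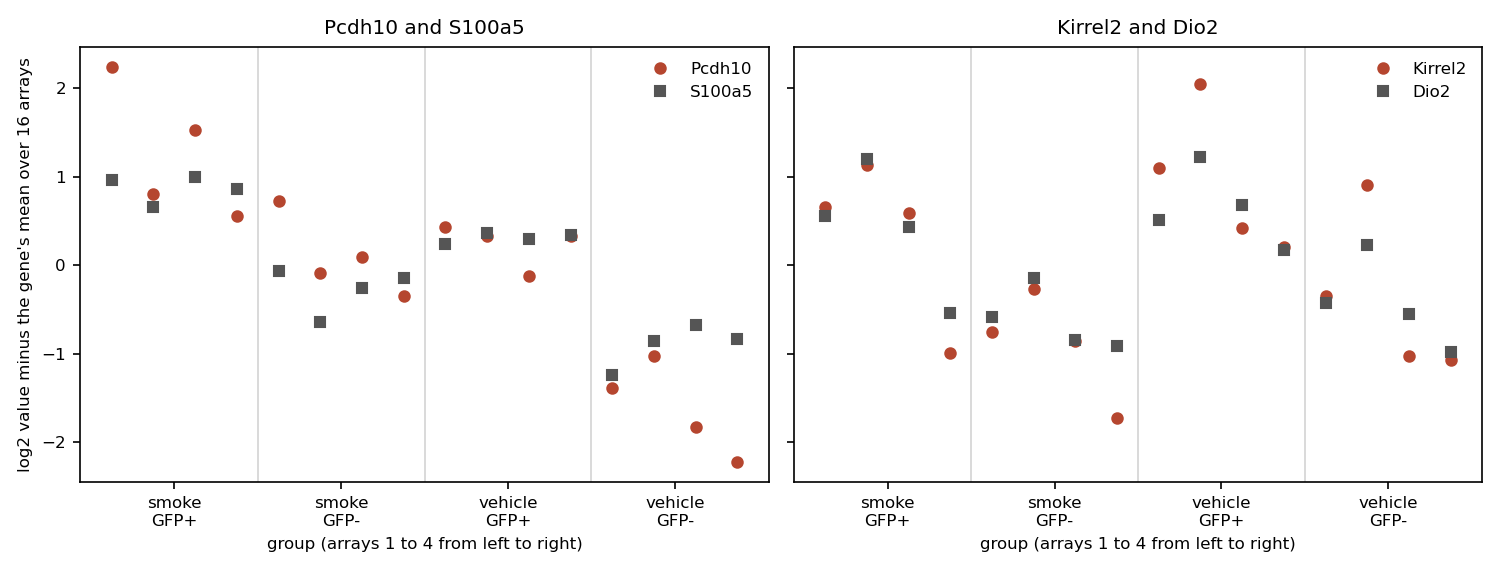
Log2 value minus the gene's own mean over 16 arrays, for Pcdh10 with S100a5 (left) and Kirrel2 with Dio2 (right), by group on the x axis with arrays 1 to 4 from left to right. S100a5, the gene that drives the reporter, was not the closest gene to Pcdh10: Galnt15 lay closer (0.62 against 0.64). Dio2 was the closest gene to Kirrel2. Pcdh10 and S100a5 are both highest in smoke GFP+ and lowest in vehicle GFP- cells, with wider swings in Pcdh10, and Kirrel2 and Dio2 share the low smoke pool 4 and the high vehicle pool 2 in GFP+ cells.

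The families around the 9 genes were read from lists of 118 other axon guidance and adhesion genes, of which 112 were measured. In smoke mice 19 were called higher and 13 lower in GFP+ cells, and in vehicle mice 34 higher and 17 lower, with a median difference relative to all genes of 0.03 and -0.02. The background given above was 18.3% of all genes higher and 14.4% lower in smoke mice and 24.2% and 15.4% in vehicle mice, so nothing particular to the lists is read from their counts here or below. Of these calls, 1 higher and 1 lower in smoke mice and 2 higher and 5 lower in vehicle mice were of genes at background in both fractions compared. In every comparison of smoke with vehicle 0 of the 112 were called by limma, with 4 in GFP+ cells, 7 in GFP- cells, 6 in the ratio and 4 in pool means at an unadjusted p under 0.05. The delta protocadherin and teneurin list, the family of Pcdh10, had 5 of 14 called higher in smoke mice and 7 of 14 in vehicle mice, with 0 lower. Pcdh7 averaged 12.00 in smoke GFP+ cells, against 10.55 in smoke GFP- cells, and 12.10 in vehicle GFP+ cells, against 10.36 in vehicle GFP- cells (adjusted p = 1.26e-05 and 1.40e-06 by limma).

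Relatives of the receptors and ligands split both ways. Of 10 neuropilin, plexin and integrin genes, 3 were called higher and 3 lower in smoke mice, and 4 higher and 2 lower in vehicle mice. Plxna3, a relative of Plxna1, was higher in GFP+ cells by 0.83 in smoke mice and 0.91 in vehicle mice (adjusted p = 3.50e-06 and 9.57e-07). Plxnc1 and Itgb1, whose products bind Sema7A, were named after their values were seen: Plxnc1 was lower in GFP+ cells by -0.65 in smoke and -0.85 in vehicle mice, and Itgb1 by -0.83 and -1.02, all called by limma. Of 17 semaphorins 2 were called higher and 1 lower in smoke mice and 4 higher and 1 lower in vehicle mice, and of 7 ephrins 2 higher and 2 lower in each. Of 12 Eph receptors 1 was called higher in each exposure, Epha7, with 1 lower in smoke and 4 lower in vehicle mice. The 1 in smoke mice, Epha4, and 3 of the 4 in vehicle mice, Epha2, Epha4 and Ephb6, were at background in both fractions, so these calls are of probe sets near the floor.

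The adhesion list of immunoglobulin-family relatives of the Kirrel genes had 4 of 26 called higher and 1 lower in smoke mice and 8 higher and 2 lower in vehicle mice. Alcam, an adhesion molecule shared with immune cells, averaged 9.46 in smoke GFP+ cells, against 10.94 in smoke GFP- cells, and 8.99 in vehicle GFP+ cells, against 11.05 in vehicle GFP- cells (adjusted p = 4.60e-05 and 9.57e-07). Of 16 Slit, Robo, netrin and chemokine genes 1 was called higher and 2 lower in smoke mice and 5 higher and 3 lower in vehicle mice. Cxcr4, a chemokine receptor of immune cells and of neuronal precursors, was lower in GFP+ cells by -5.01 in smoke mice and -5.45 in vehicle mice (adjusted p = 1.65e-10 and 6.33e-11).

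Of the 10 genes on the growth cone list, 3 were called lower and 1 higher in smoke mice, and 3 lower and 3 higher in vehicle mice. The gene called higher in smoke mice, Ntrk2, and 1 of those called higher in vehicle mice, Bdnf, were at background in both fractions. Gap43 averaged 10.25 in smoke GFP+ cells, against 11.95 in smoke GFP- cells, and 9.74 in vehicle GFP+ cells, against 11.85 in vehicle GFP- cells. Dpysl3 was lower in GFP+ cells by -3.02 in smoke mice and -3.29 in vehicle mice. Both are also on the list of immature neuron markers. Ablim1 was at background in both GFP+ groups, and was at least 8.80-fold lower there in smoke mice and at least 14.6-fold lower in vehicle mice. The immature neuron and immune marker lists were lower in GFP+ cells too, as given above, and their part in these differences was not tested.

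**Figure D5:**
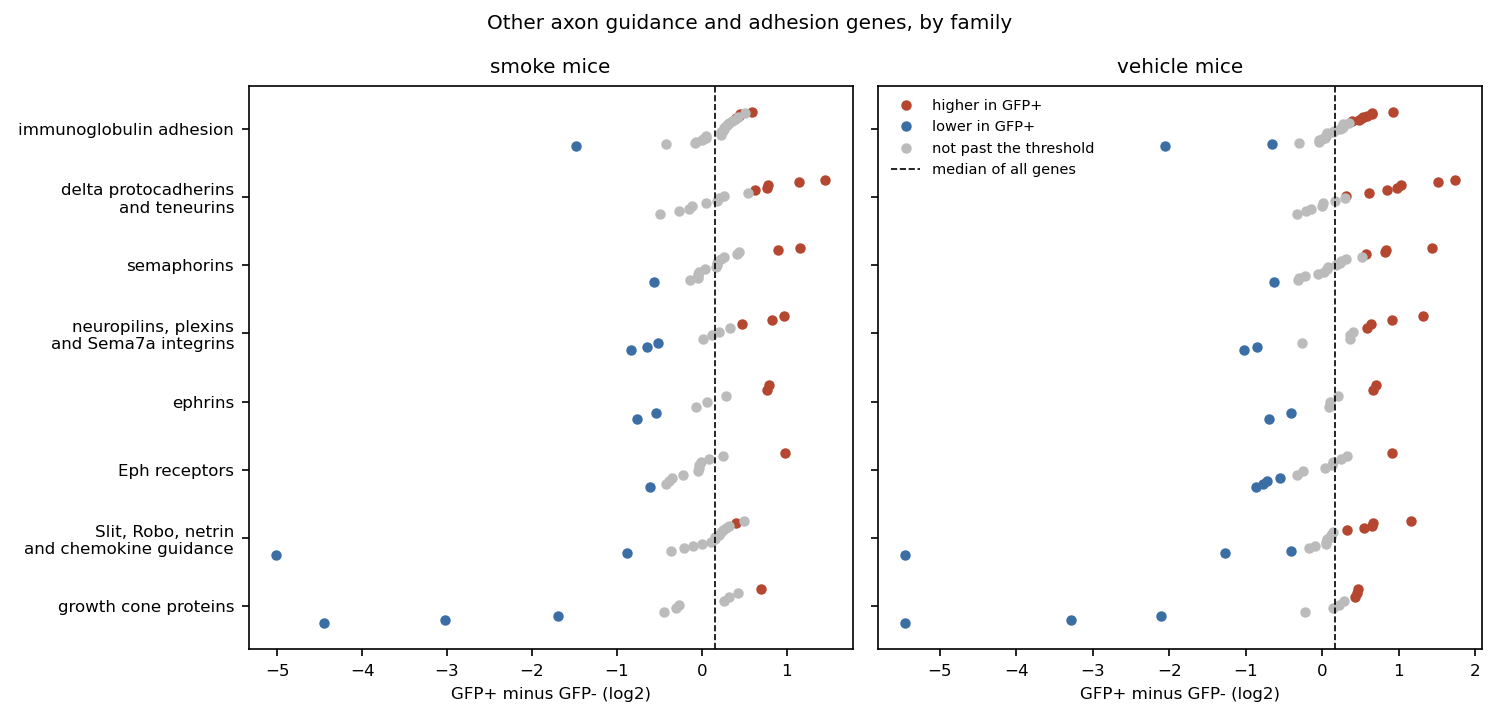
GFP+ minus GFP- log2 difference of 112 other axon guidance and adhesion genes, 1 point per gene, by family on the y axis, in smoke mice (left) and vehicle mice (right), with genes called higher in red, called lower in blue and not called in grey, and the median of all genes as a dashed line. The falls beyond 3 log2 units are Cxcr4, Ablim1 and Dpysl3, and the delta protocadherin and teneurin list has no gene called lower.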

How the data were processed

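RNA of each fraction (50 to 100 ng) was hybridised to 1 Clariom S mouse array, 16 in all. The authors deposited log2 values made with Affymetrix Expression Console, per the submitters' processing notes. The version and the algorithm were not given in the sources used here. Array medians as deposited were 7.87 to 7.96 for the GFP+ and 8.19 to 8.29 for the GFP- fraction. Of 28846 probe sets, 19572 had 1 gene symbol and 9274 had no single symbol (controls included), and the probe set with the highest mean stood for each of 19505 genes (55 had several). The values were not changed further.

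Group means were fitted with limma 3.58.1 (lmFit, eBayes) in R 4.3.3 to all 16 arrays for 5 contrasts, and to 8 pool means for a 6th comparison, with two-sided p adjusted by Benjamini-Hochberg over all genes at 0.05. Intervals are 95%. The fit was tested on simulated arrays with independent noise, where the mean estimate of planted shifts had to lie close to their size. The simulation had no pool effect, so it does not test calls where the fractions share a pool. The precision is limited by 4 arrays per group. Fractions with 1 replicate number come from the same mice, so the pool was also fitted as a block; their residuals correlated with r of 0.0453 to 0.220. A list is described by counts, with no test of the list. Members, lists and alternatives were chosen with earlier results of these data known.

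Named were all 10 listed genes, S100a5, Omp, up to 6 called genes per comparison from the wider lists and the 3 nearest genes of each called gene. Alternatives were centring, quantile normalization, a filter on low values, eBayes with trend and robust, fewer arrays in the fit, blocks, leaving out arrays or pools, and the mean of a gene's probe sets. Figures used Python 3.11.15 and matplotlib 3.10.9.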

Additional observations from a re-analysis of the deposited data

Results flagged for a closer look

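Of 54 groups of 4 arrays or pools tested for 1 value far from the rest, 2 had one, and chance alone gives about 1 in 20. The GFP+ minus GFP- difference of Kirrel2 in smoke pool 4 was 0.735, against 1.40 to 1.44 in the other 3 smoke pools, and the gap was 0.933 of the range. Smoke pool 4 also had the lowest Kirrel2 value of the 8 pools in each fraction and the highest sustentacular list mean in smoke GFP+ cells (12.83). Smoke pool 2, also high in these markers in GFP+ cells (12.45), had the highest Kirrel2 of the smoke pools, 14.05 in GFP+ and 12.65 in GFP- cells. A link between the markers and Kirrel2 was not tested. Robo2 in smoke GFP- cells was 12.62 in replicate 1, against 12.24 to 12.29 in the other 3 arrays, and the gap was 0.866 of the range.

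As deposited, Efna5 differed between the fractions in opposite directions in the 2 exposures: GFP+ lay below GFP- in 4 of 4 smoke pools and above it in 4 of 4 vehicle pools. Pool differences lay wholly lower in smoke than in vehicle mice for 2.75% of all genes. The opposite direction depends on where 0 is set. After centring the mean difference was 0.068 in smoke and 0.663 in vehicle mice, and after quantile normalization -0.271 and 0.262. The difference of these differences was -0.573 (SE 0.274), with an adjusted p of 0.860 by limma and 0.418 with the pool as a block (SE 0.162), so it failed the correction over all genes.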

How the results depend on the processing

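No call of Pcdh10, Sema7a, Sema3a or Epha5 between GFP+ and GFP- cells was lost under any alternative tried. Over the results for single genes, 914 values kept their direction and side of the threshold, whatever their change in size, and 56 changed sign. Another 11 passed only under the alternative, and 9 passed only in the main setting (all 9 of them Kirrel2 between the fractions of vehicle mice). The number of the 9 genes called in smoke against vehicle in GFP- cells was 0 and became 1 (Pcdh10) with quantile normalization, with the pool as a block and with the replicate number as a block (adjusted p = 0.0214). The labels give the replicate number no meaning across exposures, although both pools numbered 1 were low in Y-linked transcripts, and same-numbered arrays of smoke and vehicle mice correlated by 0.0767 to 0.198 among GFP+ arrays and by -0.0841 to 0.177 among GFP- arrays. The pool as a block changed no call beyond those given with the results. The number called between the fractions of vehicle mice was 5 and became 8 with centring. Leaving out 1 array at a time gave 0 in the smoke comparisons, 4 to 5 in the sort of smoke mice and 4 to 5 in that of vehicle mice.

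Every change of sign was of a value that was not called, and the cause was not tested. With centring, GFP+ minus GFP- became 0.0839 for Kirrel3, 0.0680 for Efna5, 0.240 for Plxna1 and 0.0724 for Robo2 in smoke mice and 0.327 for Kirrel3 in vehicle mice, by the construction of the centring, and the ratio of Sema7a became -0.0138. Quantile normalization turned the ratio of Sema3a to -0.0257. Without smoke pools 2 and 4, Kirrel3 in GFP+ cells became 0.0675, the ratio of Kirrel2 0.0975, the ratio of Sema3a -0.183 and the pool mean of Efna5 0.0275. Without both pools numbered 1, the ratio of Sema7a became -0.0651, the ratio of Sema3a -0.0984, Kirrel3 between vehicle fractions 0.0250 and the pool means of Kirrel3 -0.0205 and Epha5 -0.0339. Leaving out 1 array, smoke minus vehicle ran from -0.111 to 0.0306 for Kirrel3 and -0.170 to 0.00981 for Robo2 in GFP+ cells and from -0.0564 to 0.273 for Epha5 and -0.0346 to 0.240 for Plxna1 in GFP- cells. The ratio ran from -0.514 to 0.362 for Kirrel2, -0.104 to 0.0820 for Sema7a and -0.104 to 0.163 for Sema3a. GFP+ minus GFP- ran from -0.232 to 0.0705 for Plxna1 in smoke mice and -0.0678 to 0.0442 for Kirrel3 in vehicle mice. Leaving out 1 pool, pool means ran from -0.0178 to 0.185 for Kirrel3, -0.189 to 0.0334 for Efna5, -0.117 to 0.0735 for Epha5 and -0.224 to 0.0365 for Plxna1.

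Counts over all genes are small for smoke against vehicle and changed between settings. Without smoke pools 2 and 4, 5 genes were called in GFP+ cells against 21, 7 in GFP- cells against 25, 9 in the ratio against 34 and 0 in pool means against 2. Between the fractions of smoke mice, 3579 were then called against 6373. Settings that leave out arrays also have fewer arrays in the fit, and the effect of this on the counts was not tested. In GFP- cells, 8 were called with only the compared arrays, 14 without both pools numbered 1, and 13, 14 and 16 without vehicle arrays 1 or 2 or smoke array 2. Pool means gave 0 to 6.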
